A study of Homo sapiens with 4 samples.

Results

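RAD21 peaks were described at 8 genes that control p53 and the passage from G1 into S phase, namely MDM2, CDKN1A, CDKN2A, CDKN2B, CCND1, CCNE1, RB1 and E2F1. The genes were chosen by name. A peak was assigned to a gene when its summit lay within the GENCODE version 44 gene record or within 20 kb of it. This gave 32 distinct peaks of the 56853 in the list. The windows of CDKN2A and CDKN2B overlap and share 5 peaks, and 7 of the 8 genes had at least 1 peak, where the background over 19970 protein-coding genes was 89.2%. The peak list came from RAD21 ChIP-seq of untreated wild-type HCT116 cells, a human colon carcinoma line that retains functional p53, precipitated with the antibody ab992. The series also comprised RAD21 ChIP libraries of HCT116_RAD21_AID cells (mAID degron in the RAD21 gene and OsTIR1 expression), untreated or treated for 6 h with 500 μM of indole-3-acetic acid plus 500 μM of alpha-naphthaleneacetic acid, and an Input library of the treated cells. These libraries were not analysed here. Each condition was 1 library, so replicate error is unknown and no test was made. Intervals given with a fold enrichment are exact Poisson 95% intervals on the fragments at a summit and cover counting error only. Wilson intervals given with a share treat peaks as independent draws, which neighbouring peaks of genes chosen by name are not. Peaks were called on a bulk population, in which a site bound in few cells and a site bound weakly in many cannot be told apart.

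RAD21 is the kleisin subunit that closes the cohesin ring. Cohesin extrudes chromatin loops and is held up at sites where CTCF is bound in a given orientation, which is why most strong cohesin peaks of mammalian genomes lie on CTCF sites. It is also found at active promoters and enhancers, where its peaks are usually lower. The genes described here form one circuit. MDM2 is the ubiquitin ligase that removes p53, and CDKN1A encodes p21, the inhibitor of cyclin-dependent kinases that p53 induces. CDKN2A encodes the kinase inhibitor p16INK4a and, from an upstream first exon, p14ARF, which inhibits MDM2, and CDKN2B encodes p15INK4b. CCND1 and CCNE1 encode cyclin D1 and cyclin E1, which activate the kinases that phosphorylate the RB1 product, and the unphosphorylated RB1 protein holds E2F1 and related factors inactive.

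Each peak was described by its fold enrichment, which is the ratio of ChIP fragments at the summit to the local background, each with 1 added. The local background is the larger of a genome-wide mean and the Input level around the summit. Its lowest value in the list was 5.90 fragments. At the 32 peaks it ranged from 5.90 to 12.2 fragments, at most 2.07 times this floor, and it was within 1% of the floor for 12 of them. Fold enrichments ran from 2.19 to 42.7, with a median of 4.56 against 5.58 over the whole list. A fold enrichment of at least 10 was reached by 8 of the 32 peaks, 25.0% (Wilson 95% interval 13.3 to 42.1%), where the background over all peaks was 27.2%. Below 5 lay 19 peaks, 59.4% against a background of 44.9%. All 32 numbers of fragments came out whole, and the median was 36 fragments against 48 in the list.

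The sequences at the highest peaks are shown first, because they show which of these sites carry the letters of a CTCF site. Within 50 bp of the summit, both strands were searched for the 12-base CTCF core consensus, exact or with 1 mismatch. Capitals mark a match, and sequences with a match are written in the direction of the consensus. At the E2F1 peak the minus strand also held a match with 1 mismatch, shifted by 1 base. Its plus label follows only from the rule for ties, so the strand of that match is not determined. Without a match, 61 bases around the summit are shown in lower case on the plus strand. All coordinates are GRCh38.
CCND1, intron 2, chr11:69643468-69643528, fold enrichment 42.7: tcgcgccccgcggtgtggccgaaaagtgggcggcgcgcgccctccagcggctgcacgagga
RB1, far 3′ part of the gene record, chr13:48595804-48595864, 25.8: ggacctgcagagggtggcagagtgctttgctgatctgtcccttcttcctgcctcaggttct
E2F1, in ACTL10 and NECAB3, chr20:33668064-33668124, plus strand, 21.6: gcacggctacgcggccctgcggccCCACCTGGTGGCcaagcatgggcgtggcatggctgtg
CCND1, in LTO1, chr11:69670383-69670443, minus strand, 21.1: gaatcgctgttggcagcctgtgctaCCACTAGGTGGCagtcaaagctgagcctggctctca
CDKN2B, intron 1, chr9:22008739-22008799, minus strand, 20.1: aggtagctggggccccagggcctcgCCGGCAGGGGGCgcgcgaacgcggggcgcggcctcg
CDKN1A, intron 1, chr6:36680580-36680640, 16.1: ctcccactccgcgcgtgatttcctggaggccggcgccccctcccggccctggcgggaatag
CDKN1A, in RAB44, chr6:36701695-36701755, 14.2: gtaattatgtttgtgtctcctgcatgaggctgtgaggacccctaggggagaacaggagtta
MDM2, in CPM, chr12:68864028-68864088, plus strand, 11.95: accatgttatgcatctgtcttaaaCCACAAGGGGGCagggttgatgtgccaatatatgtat

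The exact consensus occurred at 1 of the 32 peaks, the one in LTO1 downstream of CCND1. This is 3.12% (Wilson 95% interval 0.554 to 15.7%), against 11.4% of all peaks and 0.0510% of windows of the same length placed 5 kb to either side of the summits. With 1 mismatch allowed it occurred at 7 peaks, 21.9% (11.02 to 38.8%), against 38.5% of all peaks and 0.762% of the side windows. These shares differ by kind of peak. List peaks within 1 kb of a protein-coding start held it exactly in 5.46% and with 1 mismatch in 20.6%, against 12.8% and 42.4% elsewhere. List peaks with a fold enrichment below 5 held it in 3.67% and 17.8%. The 32 peaks include a larger share below 5 than the list, 59.4% against 44.9%. Of the 8 peaks that reached 10, 4 had the consensus with at most 1 mismatch. The background over all peaks of this strength was 62.4%, and 8 peaks give only a rough share. The highest peak of CCND1, both high peaks of CDKN1A and the highest peak of RB1 had none, and each was 2 mismatches away. A match is a description of the letters, and its absence says nothing about whether CTCF was bound.

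Most peaks near annotated transcript starts of these genes were low, as were most such peaks in the whole list. A peak with its summit within 1 kb of an annotated transcript start was found for 7 of the 8 genes, where the background over protein-coding genes was 44%. There were 14 such peaks, 43.75% of the distinct peaks of the 8 genes (Wilson 95% interval 28.2 to 60.7%). In the whole list, 18% of peaks lay within 1 kb of any protein-coding transcript start. The windows were set around genes, which raises this share by construction. Its part in the lower median and the larger share below 5 at the 8 genes was not tested. Fold enrichments of 12 of these 14 peaks lay between 2.45 and 5.18. The other 2 were the intron 2 peak of CCND1 and the peak of CDKN2B at 20.1. Of the 14, 9 had their summit within 1 kb of the start of the gene record or of the canonical transcript. The rest counted only through other annotated starts of the gene. They were the CCND1 peaks at 42.7, 2.898 and 2.75, the CDKN2B peak at 2.98 and the CDKN2A peak at the p14ARF start. In the whole list, peaks within 1 kb of a protein-coding start had a median of 3.91, against 6.05 for the remaining peaks, and 17.2% of them reached a fold enrichment of 10, against 29.4% of the remaining ones. Sequence around the 14 start peaks was rich in G and C, with a median of 70.8% within 50 bp of the summit and 11 CpG dinucleotides, against 66.3% and 8 for such peaks in the list. The 18 peaks away from the starts of their gene had a median fold enrichment of 7.46, a GC content of 59.4% and 4 CpG dinucleotides.

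**Figure D1:**
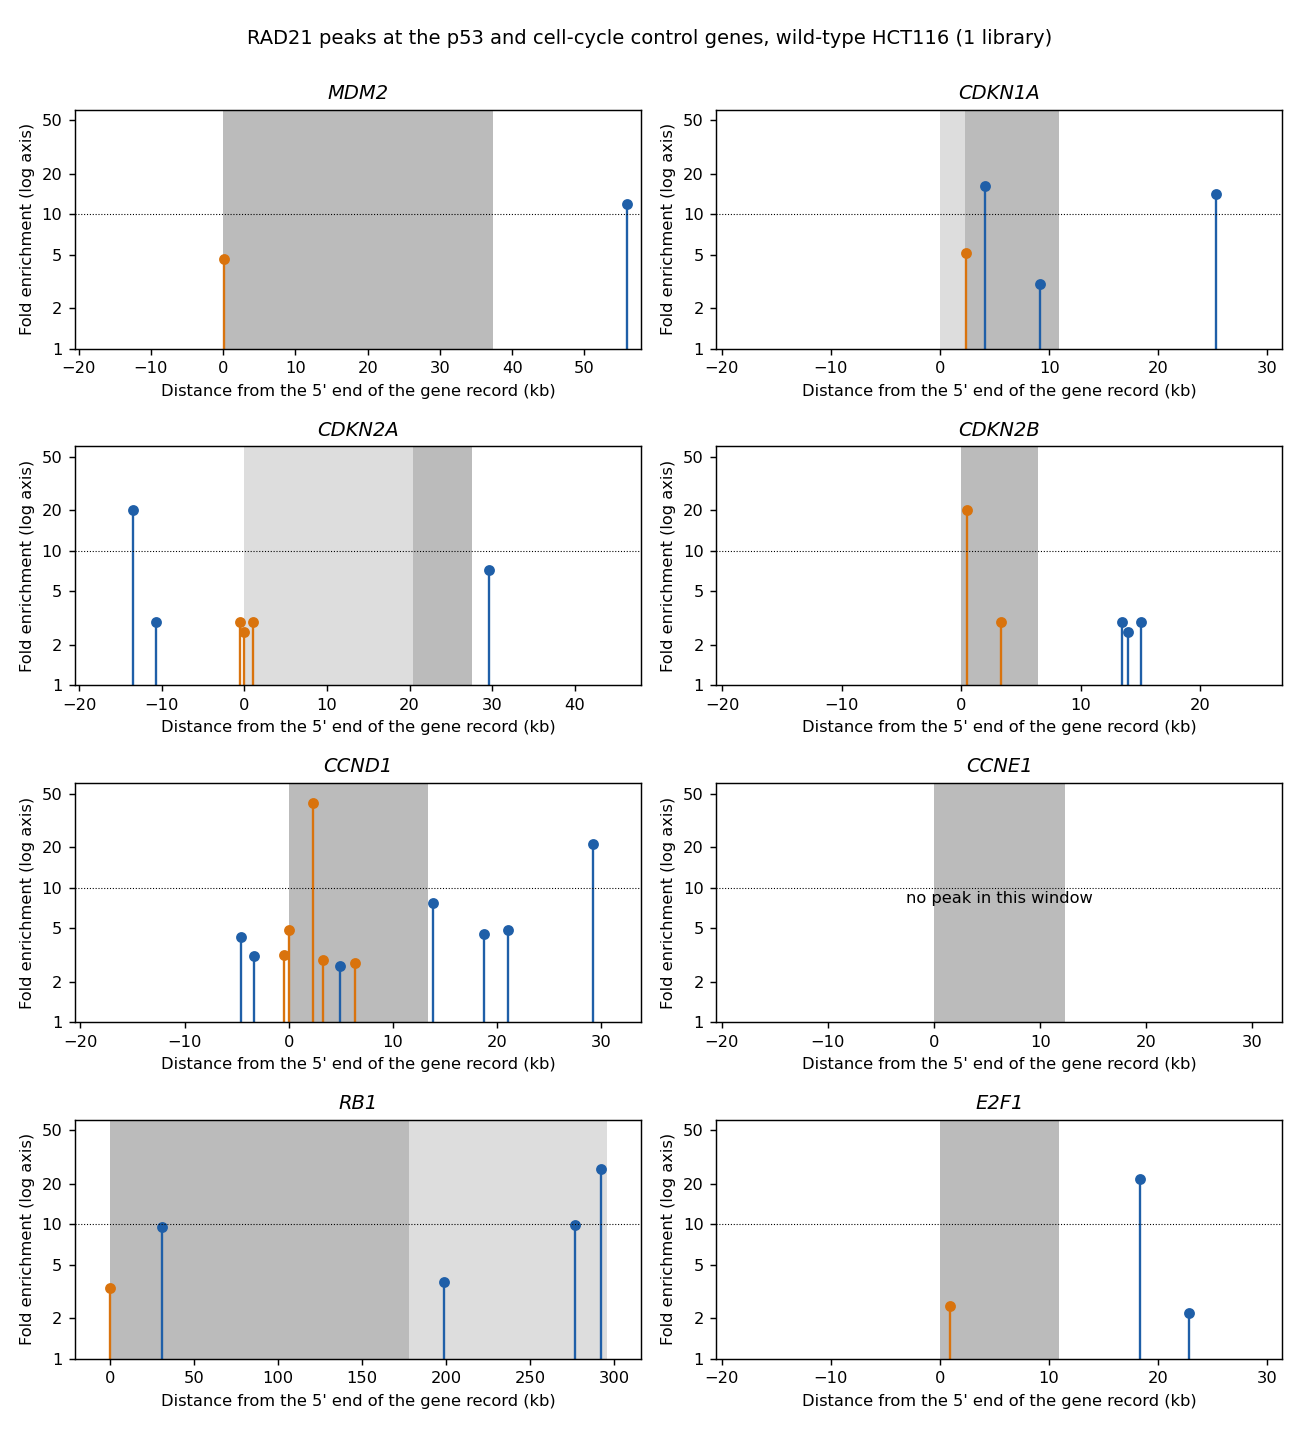
Fold enrichment of each RAD21 peak (log axis) against the distance of its summit from the 5′ end of the gene record in kb, in the direction of transcription, with the gene record in light grey and its canonical transcript in dark grey. Orange marks summits within 1 kb of a transcript start of that gene, blue the others, and the dotted line a fold enrichment of 10. Start peaks lie between 2.45 and 5.18 except at CDKN2B and in CCND1, and CCNE1 has no peak.

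MDM2, from 68808177 to 68845544 on the plus strand of chromosome 12, had 2 peaks and none along the rest of its body. The first lay over the start of the gene, with a summit 46 bp into exon 1, in the 5′ UTR. It had 36 fragments over a background of 6.99, a fold enrichment of 4.63 (3.28 to 6.37). The second peak, from 68863765 to 68864407, lay beyond the 3′ end in intron 7 of CPM, a gene for a membrane carboxypeptidase on the opposite strand. It had 99 fragments over 7.36, a fold enrichment of 11.95 (9.74 to 14.5), and its consensus match with 1 mismatch pointed in the direction of MDM2 transcription. The intervals of both peaks did not overlap, and their summits were 55833 bp apart. MDM2 had 0.259 peaks per 10 kb of its window, near the median of 0.292 over protein-coding genes.

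CDKN1A, from 36676460 to 36687337 on the plus strand of chromosome 6, had 4 peaks. The one at the start of the canonical transcript had its summit 163 bp downstream, in intron 1. It had 38 fragments over 6.52 and a fold enrichment of 5.18 (3.71 to 7.07), the highest of the 12 low start peaks. The highest peak, from 36679973 to 36680915, lay 1733 bp further into intron 1. It had 137 fragments over 7.58, a fold enrichment of 16.1 (13.5 to 19.0). A weak peak of 20 fragments, 3.04 (1.92 to 4.62), lay in intron 2. The fourth peak, from 36701468 to 36701970, lay in intron 1 of the neighbouring gene RAB44, with 97 fragments over 5.90 and a fold enrichment of 14.2 (11.5 to 17.3). Its interval overlapped that of the intron 1 peak, so the order of these 2 peaks, 21115 bp apart, was not resolved at this depth. At 0.786 peaks per 10 kb, 89.3% of protein-coding genes had a lower density.

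CDKN2A and CDKN2B lie next to each other on the minus strand of chromosome 9, CDKN2A from 21967752 to 21995301 and CDKN2B from 22002903 to 22009305, with 7.60 kb between them. The interval from 20 kb before to 20 kb after both genes measured 81.6 kb and held 6 peaks. CDKN2B-AS1, the antisense long non-coding RNA often called ANRIL, runs on the plus strand and overlaps both genes. The highest peak, from 22008542 to 22009606, covered the start of CDKN2B and had its summit 519 bp downstream of it, in intron 1. It had 147 fragments over 6.35 and a fold enrichment of 20.1 (17.0 to 23.6), and it held 51.9% of the summed fold enrichment of the interval. Its consensus match lay on the minus strand, in the direction of CDKN2B and CDKN2A transcription.

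The next strongest peak of the interval, from 21965334 to 21965879, lay at the other end, beyond the 3′ end of CDKN2A. It had 49 fragments over 5.91, a fold enrichment of 7.23 (5.39 to 9.52). The other 4 peaks were weak, between 2.48 and 2.98, and their intervals overlapped. One of them lay in exon 2 of CDKN2B, in coding sequence, with 21 fragments over 6.38. The remaining 3 clustered at the p14ARF start within 1557 bp. The first, at 127 bp downstream of the p14ARF start, had 33 fragments over 10.4 and a fold enrichment of 2.98 (2.08 to 4.15). The second, 974 bp upstream of it, had 25 over 9.47, or 2.48 (1.64 to 3.62), and the third, 1430 bp upstream, had 38 over 12.2, or 2.95 (2.11 to 4.03). The canonical start of CDKN2B-AS1 lay between the first and second summits, so the cluster cannot be assigned to p14ARF alone. The local background at these 3 peaks was 1.61 to 2.07 times the floor, and its part in their low enrichment was not tested. The start of p16INK4a, at 21974857, had no peak within 1 kb. The nearest summit lay 9193 bp downstream, and the longest stretch without a summit, 28601 bp, contained this start. Sequences at 4 of these peaks are shown because none of them holds the consensus with at most 1 mismatch.
CDKN2A, 3′ flank, chr9:21965634-21965694, 7.23: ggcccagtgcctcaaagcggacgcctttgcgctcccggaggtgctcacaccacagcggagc
CDKN2A, p14ARF start, chr9:21994235-21994295, 2.98: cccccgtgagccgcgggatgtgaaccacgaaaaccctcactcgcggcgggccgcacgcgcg
CDKN2A, upstream, chr9:21995336-21995396, 2.48: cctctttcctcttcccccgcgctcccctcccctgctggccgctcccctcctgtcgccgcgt
CDKN2A, upstream, chr9:21995792-21995852, 2.95: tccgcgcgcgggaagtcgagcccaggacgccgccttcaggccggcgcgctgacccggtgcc

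CCND1, from 69641156 to 69654474 on the plus strand of chromosome 11, had 12 peaks in a window of 53.3 kb. It had 2.25 peaks per 10 kb, and 99.9% of protein-coding genes had a lower density. Its summed fold enrichment of 104.5 was above that of 97.1% of them. The 12 peaks were spread over the window, with 3 upstream of the gene, 5 in its body and 4 past its 3′ end, within the record of LTO1, a gene on the opposite strand that overlaps this end.

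The highest peak of CCND1 was also the highest of all 32. It ran from 69642026 to 69643946, and only 0.398% of the peaks in the list were wider than its 1921 bp. It had 365 fragments over 7.58, a fold enrichment of 42.7 (38.4 to 47.3), and 98.3% of all peaks were lower. Its summit lay in intron 2, 2342 bp downstream of the gene start and 214 bp from the start of a short internal transcript, so it counts as a start peak only through that transcript. The GC content around the summit was 78.2%, with 19 CpG dinucleotides within 50 bp. At the gene start itself the summit 51 bp into exon 1, in the 5′ UTR, had 36 fragments over 6.63 and a fold enrichment of 4.85 (3.44 to 6.66). The second highest peak, from 69669636 to 69670827, lay in intron 3 of LTO1. It had 211 fragments over 9.05, a fold enrichment of 21.1 (18.4 to 24.1). The intervals of the 2 highest peaks did not overlap. The exact consensus there lay on the minus strand, against the direction of CCND1 transcription, and the summits were 26889 bp apart.

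The other 10 peaks of CCND1 were between 2.61 and 7.68, with 17 to 52 fragments. The peak of 7.68 (5.77 to 10.0), from 69654204 to 69655794, extended over the 3′ end of the gene. The 3 low peaks in intron 3, at 2.898, 2.61 and 2.75, had 19, 17 and 18 fragments at the floor background, and their intervals overlapped. Upstream, summits lay 4595, 3317 and 470 bp before the gene, with fold enrichments of 4.31, 3.11 and 3.17. At a q-value of 1e-05, 7 of the 12 peaks passed. In the whole list the share failing this limit lay between 17.8% and 22.4%, the shares below −log10 q values of 4.84 and 5.91.

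CCNE1, from 29811991 to 29824312 on the plus strand of chromosome 19, had no peak in its window of 52.3 kb. Windows without a peak were found for 10.8% of protein-coding genes. The nearest summits lay 25.6 kb upstream, with 47 fragments over 9.47 and a fold enrichment of 4.58, and 33.9 kb downstream, with 109 fragments over 14.2 and a fold enrichment of 7.23. Both lay outside annotated genes. The upstream peak held the consensus with 1 mismatch and the downstream peak held it exactly, each on the plus strand. Weaker signal than the peak threshold allows cannot be seen in a peak list.

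RB1 has a record from 48303744 to 48599436 on the plus strand of chromosome 13, which runs 117.5 kb past its canonical transcript through 1 transcript. It held 5 peaks. At the gene start the summit lay in the coding part of exon 1, with 22 fragments over 5.90 and a fold enrichment of 3.33 (2.14 to 4.97). The peak from 48334500 to 48334906, in intron 2, had 65 fragments over 5.90, a fold enrichment of 9.56 (7.42 to 12.2). No further summit lay within the canonical transcript, and the distance to the next one was 168.1 kb. The other 3 peaks lay past its end. One of 3.69 was in coding exon 11 of RCBTB2, and one of 9.87 (7.99 to 12.1) was in intron 1 of LINC00462. The highest, from 48595413 to 48596244, had 177 fragments over 5.90 and a fold enrichment of 25.8 (22.2 to 29.9). With the canonical transcript in place of the record, an alternative added after seeing the data, RB1 kept 2 peaks and its highest was 9.56. Its density over the record was 0.149 peaks per 10 kb, and 24.0% of protein-coding genes had a lower one.

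E2F1, from 33675477 to 33686385 on the minus strand of chromosome 20, had 3 peaks. The peak nearest its only annotated start lay 937 bp downstream in intron 1, close to the 1 kb limit. It had 27 fragments over 10.4 and a fold enrichment of 2.45 (1.65 to 3.53), the lowest of the start peaks. The highest peak, from 33667732 to 33668319, lay beyond the 3′ end of E2F1, in intron 5 of NECAB3 and in the single coding exon of ACTL10. It had 148 fragments over 5.90 and a fold enrichment of 21.6 (18.3 to 25.3), which was 8.81 times that of the next peak of E2F1. A peak of 2.19 (1.43 to 3.22) with 24 fragments, also within NECAB3, was the lowest of all 32. Its summit lay in coding exon 2 of C20orf144, 148 bp from an annotated start that is not of E2F1.

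Set in order by their highest peak, the genes ran from CCND1 at 42.7 over RB1 at 25.8, E2F1 at 21.6, CDKN2B and CDKN2A at 20.1 (the same peak) and CDKN1A at 16.1 to MDM2 at 11.95. The interval of CCND1 did not overlap that of any other gene. RB1, E2F1 and CDKN2B overlapped one another, CDKN1A overlapped E2F1 and CDKN2B but not RB1, and MDM2 overlapped CDKN1A alone. By peaks per 10 kb the order was different, with CCND1 at 2.25, CDKN2B at 1.08, CDKN2A at 0.888, CDKN1A at 0.786, E2F1 at 0.589, MDM2 at 0.259, RB1 at 0.149 and CCNE1 at 0. The highest peak held between 40.8% of the summed fold enrichment at CCND1 and 82.3% at E2F1. A peak of at least 10 was present in the windows of 7 of the 8 genes, where the background over protein-coding genes was 52.4%. With canonical transcripts it was 5 of 8, since RB1 lost its highest peak and the window of CDKN2A, set by p16INK4a, no longer reached the CDKN2B start. The share over protein-coding genes was not computed for canonical transcripts, so this count has no like background.

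**Figure D2:**
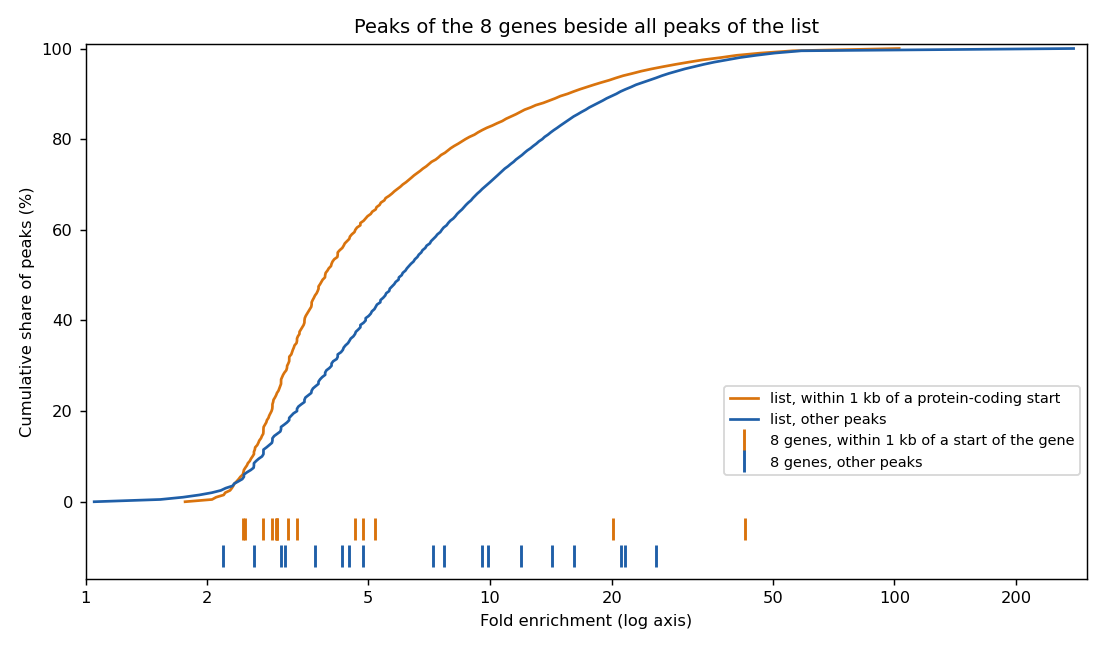
Cumulative share of all peaks in the list (y axis, %) against fold enrichment (log axis), for peaks within 1 kb of a protein-coding start (orange line) and the others (blue line), with ticks for the 32 peaks of the 8 genes. Ticks are split by starts of the gene itself, the lines by any protein-coding start. Of the 14 start peaks of the 8 genes, 12 lie at 5.18 or below and 2 lie at 20.1 and 42.7.

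The same windows were set for 38 other genes of the pathway, in 4 lists. A start peak was found for 24 of them, 63.2%, against 44% of protein-coding genes. Both shares count any annotated transcript start. At the 5′ end of the record alone 15 of the 38 had a start peak, and no background was computed for that rule. A peak of at least 10 in the window was found for 24 of the 38, against 52.4% of protein-coding genes. On the p53 axis the share with a peak of at least 10 was 53.3%, near that of all protein-coding genes. By list, a start peak was found for 10 of 15 genes of the p53 axis, 2 of 4 CDK inhibitors, 5 of 8 cyclins and kinases and 7 of 11 pocket protein and E2F genes. The median over all 38 of the peaks per window was 3, the same as over protein-coding genes, against 4.5 for the 8 genes. In the latter, the 5 peaks that CDKN2A and CDKN2B share count under both genes. For the 24 genes with a start peak, the highest start peak of each had a median of 3.73 and was below 5 for 18 of them. The like median was 4.63 over 7 of the 8 genes and 4.21 over protein-coding genes. The highest were at CDKN1C (18.6), an imprinted gene for the inhibitor p57, at TP53I3 (15.96), a p53 target gene, and at CDK6 (15.8), the kinase partner of D-type cyclins. TFDP2, which encodes an E2F partner, had a start peak of 9.29. Among these genes, CCNG1 and RBL1 had no peak in their windows.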

How the data were processed

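The data were the RAD21 peaks of wild-type HCT116 cells without treatment (1 library). The authors trimmed reads with Trimmomatic 0.39, aligned them to GRCh38 with Bowtie2 2.5.3, removed duplicates with Picard and called peaks with MACS2 2.2.9.1 against Input at a q-value threshold of 0.05, without pooling. Which Input served as the control is not given in the sources used here. The deposited columns used were the fold enrichment (a ratio), the −log10 p-value and the −log10 q-value, and the deposited score was only compared with the q-value. The list holds no read totals.

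Fragments and local background at each summit were solved from the fold enrichment and the p-value of a Poisson distribution. They were taken as whole within 0.05, which held for all but 14 of 56853 peaks, and the procedure was tested on simulated data. All sequence names were present in the reference, and 0 peaks ran past a sequence end. Annotation was GENCODE version 44. Summits are 1-based. Genes, lists and rules were chosen with earlier results of these data known. The rule for peaks described singly named the highest peak of each gene, the peak nearest a start and further peaks of at least 10, and other peaks of the 8 genes given singly were picked after their values were seen. For the other pathway genes it named the 5 highest start peaks, of which 1 is not reported here. CCNG1 and RBL1 were named after their values were seen. Sequences overlapping a UTR are not shown. Alternatives were stricter q-values, other windows, overlap, start definitions, motif limits and rankings. Computation used scipy 1.17.1, pandas 2.3.3, numpy 2.4.6, pysam 0.24.0 and samtools 1.23.1 under Python 3.11.15, and plots matplotlib 3.10.9.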

Additional observations from a re-analysis of the deposited data

How the results depend on the processing

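No paired analysis was possible because the peaks come from 1 library and no test was made. The highest peak of each of the 7 genes with peaks was the same when ranked by −log10 q or by fragments minus background. These rankings use the same fragments and background, so their agreement was largely fixed in advance. The window did change the highest peak. With 10 kb flanks it was 4.63 at MDM2 and 7.23 at CDKN2A. With 50 kb flanks higher peaks entered, at 25.1 for E2F1 and 16.4 for CDKN1A. The 32 peaks became 21 at a q-value of 1e-05 and 18 in gene bodies alone, and stayed between 28 and 48 under the other settings. At a q-value of 1e-05, between 17.8% and 22.4% of the whole list dropped out. The 8 peaks of at least 10 became 5 with 10 kb flanks, 16 with 50 kb flanks and 4 in gene bodies alone. The median of 4.5 peaks per window became 1.5 in gene bodies alone and 2.5 with canonical transcripts in place of gene records, an alternative added after seeing the data. Start peaks were present at 5 to 7 of the 8 genes under each definition and q-value run. Among the 38 other genes they went from 24 to 15 at the 5′ end of the record alone. The share over protein-coding genes was not computed under these other definitions and q-values, so these counts have no like background. The CDKN2A/CDKN2B interval held 4 to 6 peaks. The share with the CTCF consensus was 21.9% with 1 mismatch. These settings keep fewer or more peaks by construction. Of 72 counts of single genes under these settings, 13 moved by over 1.5 times. CCNE1, without a peak at 20 kb, had 5 at 50 kb. Of the 32 peaks, 11 rest on 17 to 25 fragments, which gives them wide counting intervals relative to their size.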

Other observations

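Beyond the 20 kb limit, E2F1 and CDKN1A had nearest peaks stronger than the highest in their windows. At CDKN1A, peaks of 20.8 and 16.4 lay 52.8 kb upstream and 37.4 kb downstream, against 16.1 within the window. A peak of 25.1 with 172 fragments lay 22.1 kb past the 3′ end of E2F1, with the CTCF consensus at 1 mismatch on the minus strand. A peak of 28.3 with 269 fragments lay 29.6 kb past the 3′ end of CCND1, with the exact consensus on the minus strand. It was below the highest peak in the CCND1 window, at 42.7. Past the 3′ end of MDM2, a peak of 9.19 lay at 26.6 kb, also in CPM. The CDKN2A/CDKN2B interval was bordered by longer stretches without summits, and the next peaks lay 84.0 kb past CDKN2A, at 2.88, and 110.4 kb upstream of CDKN2B, at 9.46 within CDKN2B-AS1.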
